A study of Mus musculus with 2 samples.

Results

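The regions described here are stretches of continuous RNA-seq coverage, called contigs, that begin shortly past the 3' ends of genes, on the strand of the gene, in embryonic mouse tissue labelled central nervous system. A contig was taken when its level was 1 or more, its irreproducibility score was at most 0.1, it overlapped no gene of the mm9 Ensembl annotation on either strand, and its 5' edge lay within 10 kb past the 3' end of a same-strand gene. The rule chose 297 contigs past 279 genes, out of 858138 contigs in all, of which 38829 met the limits on level and score and 1997 of those overlapped no gene. The members were 14.9% of these intergenic contigs. They covered 559041 nt of the genome. The members were thus chosen by level, score and position, so their levels are a description and carry no test.

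Poly(A)-selected RNA of this tissue came from C57BL/6J mouse embryos of day 18, as 2 libraries of 1 group, with pooled males and females per the labels. Reads were stranded pairs from RNA longer than 200 nt. The labels give a separate biosample to each library and do not say how many embryos went into it. No treatment, mutant or second age was included, so the data hold no comparison between conditions. The level of a contig is the number of aligned bases per kb of contig, scaled by the aligned bases in all, pooled over both replicates, so it has no replicate spread of its own. The deposited values imply that a level of 1 equals a mean coverage of 63.0-fold. The fewest aligned bases in a member were 1036, over 15 nt past Krt33a at a level of 1.1. A read adds at most 15 bases there, so bases divided by the read length would understate the reads.

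The gene tables of the libraries held 97513548 expected counts in replicate 1 and 142741622 in replicate 2. Markers of neurons were abundant in both, with 5 of 5 between 94.6 and 2731 TPM, a share of all transcripts corrected for length, in replicate 1 and between 89.7 and 2430 in replicate 2. Markers of tissue outside the nervous system differed between the libraries. In replicate 2 the 4 skeletal muscle markers summed to 510 TPM against 12.5 in replicate 1, and the 3 cartilage and bone markers to 46.4 against 8.54. The 2 red cell markers found were lower in it, at a sum of 349 against 542. Xist, the RNA of the inactive X chromosome, stood at 0.0900 TPM in each library, and the Y-linked gene Ddx3y at 14.9 in replicate 1 and 14.1 in replicate 2, which goes against the label of pooled males and females. The mm9 tables number 2 replicates without tying them to these libraries, so their columns are called replicate columns below.

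A messenger RNA ends where the cleavage and polyadenylation machinery cuts the nascent transcript, usually shortly after the hexamer AATAAA or a close variant. Many genes have several such sites, and neurons are known for using distal ones, which gives brain transcripts long 3' untranslated regions. Transcription itself runs on past the cut before the polymerase leaves the template, and an annotation made from other tissues can stop at a proximal site. Unspliced precursors, unannotated genes and small RNA host transcripts can also lie next to an annotated end.

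For 16 contigs past 14 genes, a later annotation, GENCODE M21, has a last exon that is long enough to reach the contig. The comparison used lengths only: a later last exon was matched to the mm9 gene when the intron before it had the same length, and no coordinate was moved between builds. Of 133 upstream genes with both annotations, 37 (27.8%) had a longer later last exon, 9 a shorter and 87 an equal one, against 21.3% longer among all 22093 genes compared. Extensions of 1 kb or more were found for 17 of the 133 genes (12.8%), against 4.49% of all genes. Among coding transcripts 34 of 116 genes (29.3%) had a longer later last exon, against 24.6%. In 16 of them (13.8% of the 116) it was longer by 1 kb or more, against 5.31%.

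In 4 contigs the far edge fell within 10 nt of the end of the later exon. The contig past Kcna2, which encodes a voltage-gated potassium channel subunit, ran from mm9 chromosome 3, 106909999 to 106917923, and its far edge lay 8126 nt past the mm9 gene end, which is also the length by which the later exon is extended. The contig past Cntnap5a, a gene of the contactin-associated cell adhesion family (chromosome 1, 118478654 to 118483900), ended 5297 nt past the gene, again exactly the later extension. Past Sntb2, which encodes an adaptor of the dystrophin complex (chromosome 8, 109538732 to 109543610), the edge lay at 5518 nt and the later end at 5522. Past Grin2a, the gene of the NMDA receptor subunit GluN2A (chromosome 16, 9567994 to 9572060), the edge lay at 9809 nt and the later end at 9812. These edges are contig borders and were not used by the rule, but the 4 genes were picked out after their values were seen.

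The last bases of these exons are shown because they hold the signal by which an end is recognised. The transcript strand was searched for AATAAA and ATTAAA in the last 50 nt before each end, the hexamer nearest the end was kept, and 30 nt around it are printed with the hexamer in capitals. Where neither was found the last 30 nt are printed. Sequences are from the GENCODE M21 transcripts, and coordinates are GRCm38. Nudt21 and Zfp738 are added as genes named for their function list and their length.
Kcna2 later end, chr3:107114976-107115005, plus strand: aaatgacaaaAATAAAatttttgacagaca
Kcna2 mm9 end, chr3:107106850-107106879, plus strand: aagacaggcaggtctgtgggttcaatgtat
Cntnap5a later end, chr1:116587279-116587308, plus strand: atttAATAAAgagagaattttgtatctttt
Cntnap5a mm9 end, chr1:116581997-116582026, plus strand: gaacatgctagttatattattcctaaaatt
Sntb2 later end, chr8:107019685-107019714, plus strand: ctttttattgtaAATAAAaagttgctttta
Sntb2 mm9 end, chr8:107014143-107014172, plus strand: tAATAAAccaaaatttattctttcaaaata
Grin2a later end, chr16:9567908-9567937, minus strand: ttctAATAAAgataatttctgccacttgat
Grin2a mm9 end, chr16:9577710-9577739, minus strand: ctaggaggaagaggatatagggaggtattt
Nudt21 later end, chr8:94015496-94015525, minus strand: gttatttcAATAAAaatatttaaaactgaa
Nudt21 mm9 end, chr8:94019403-94019432, minus strand: gtttctcATTAAActctgaaaagtcttaga
Zfp738 later end, chr13:67658685-67658714, minus strand: taaagaaaatatccaatAATAAAaaatttt
Zfp738 mm9 end, chr13:67667437-67667466, minus strand: taattATTAAAtcttgtatggacctttcaa

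All 6 later ends printed hold AATAAA. Its first base lay 20 nt from the end in Kcna2, 41 in Cntnap5a, 18 in Sntb2, 36 in Grin2a, 22 in Nudt21 and 13 in Zfp738. At the mm9 ends Sntb2 has AATAAA 49 nt from the end, Nudt21 and Zfp738 have ATTAAA 23 and 25 nt from it, and the windows of Kcna2, Cntnap5a and Grin2a hold neither. Over the 24 upstream genes extended by 100 nt or more, 16 held either hexamer at the later end, 13 at the mm9 end and 8 at both. Among all 1803 genes so extended, 65.1% held either at the later end and 42.3% at the mm9 end, and among all 20526 coding gene ends 73.7% did (60.4% held AATAAA). A match is a description of these letters, and absence says only that they are not in the window.

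**Figure D1:**
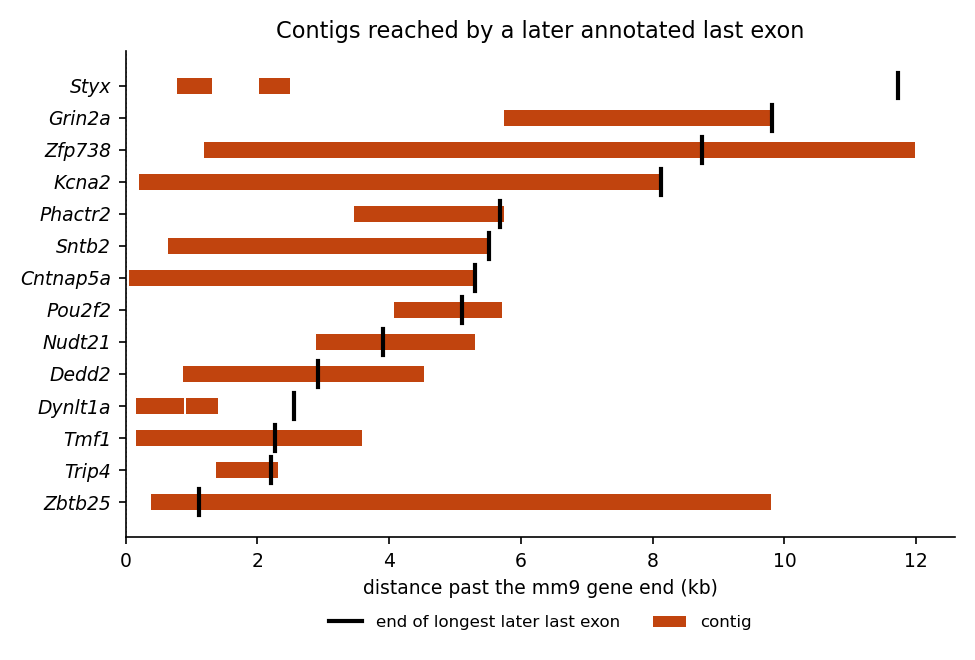
Contigs past the 14 genes whose later annotated last exon reaches them. The x axis is the distance past the mm9 gene end in kb, bars are contigs and vertical ticks the end of the longest later last exon, and for Grin2a, Kcna2, Sntb2 and Cntnap5a the tick stands at the bar's far end.

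Both replicate columns held coverage over these contigs. The de novo exon on the Kcna2 contig had 0.191 and 0.217 RPKM, that on Cntnap5a 0.402 and 0.443, that on Sntb2 0.163 and 0.183, and that on Grin2a 0.249 and 0.173. The genes themselves stood at 2.13 and 2.37 TPM for Kcna2 in replicates 1 and 2, 6.16 and 6.48 for Cntnap5a, 2.31 and 2.48 for Sntb2, and 1.03 and 1.02 for Grin2a. None of the 4 exceeded 6.48 TPM in either library. The library tables rest on an older GENCODE release, M4. Of the 14 genes 4 had there a transcript of the same identifier and the same length as an M21 transcript with a longer last exon. Only for these can its share be read. It took 100% of the gene's TPM for Cntnap5a in both libraries. For Pou2f2, the gene of the transcription factor Oct-2, 2 such transcripts summed to 27.6% and 31.6%. Whether both of them reach the contig was not checked. The share was 17.6% and 18.2% for Trip4, a subunit of a transcriptional coactivator complex, and 20.8% and 19.9% for the zinc finger gene Zbtb25.

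In 8 of the 16 contigs coverage continued past the longest later end as well. The contig past Phactr2, a regulator of phosphatase and actin, overran it by 65 nt and that past Trip4 by 102 nt. Overruns were larger past Pou2f2 (607 nt), the Golgi-associated gene Tmf1 (1312 nt), Nudt21 (1399 nt), Dedd2, a gene of the death effector domain family (1598 nt), and Zfp738 (3234 nt), and the largest was 8671 nt past Zbtb25. Both contigs past Styx, a pseudophosphatase gene, and both past Dynlt1a, a dynein light chain gene, ended short of the longest later exon. Nudt21 is itself a gene of 3' end formation, encoding the small subunit of cleavage factor I. Its contig (chromosome 8, 96537997 to 96540407) was 2411 nt long at a level of 3.51, and the gene stood at 42.6 and 45.5 TPM in replicates 1 and 2.

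Contigs downstream of gene ends were mostly short, while a minority of long ones held most of the covered sequence. The length had a median of 303 nt, with quartiles of 52 and 1669 nt and a range of 11 to 34477 nt. The 95 contigs of 1 kb or longer (32.0%) held 92.1% of the covered nucleotides, 55 were 3 kb or longer and 13 were 10 kb or longer, whereas 70 (23.6%) were 50 nt or shorter. The distance from the gene end to the contig had a median of 3161 nt, with quartiles of 1202 and 6135 nt, and 64 contigs began within 1 kb. The level had a median of 1.92, with quartiles of 1.38 and 2.89. It stood at 2 or less for 155 contigs and at 10 or more for 25.

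**Figure D2:**
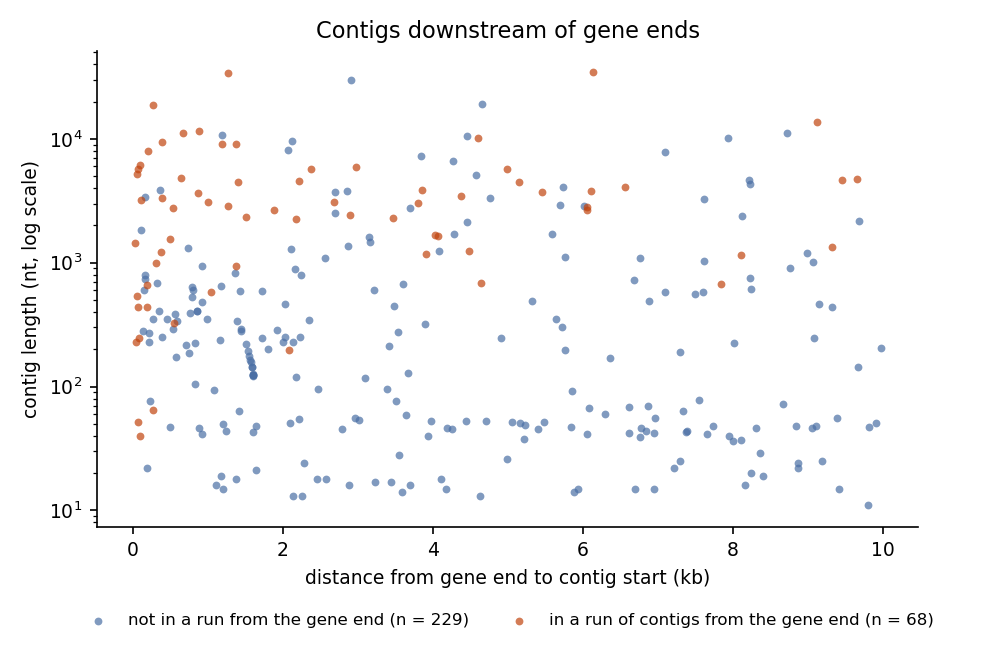
Contig length in nt (log scale) against the distance in kb from the gene end to the contig start, 1 point per contig. Orange points are the 68 contigs in an unbroken run from the gene end, with a median of 2939 nt, and blue points the other 229, with a median of 188 nt.

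A contig was placed in a run when contigs with gaps of at most 100 nt led from the gene end up to it. The 68 contigs in runs (22.9%) had a median length of 2939 nt and held 56.0% of the covered nucleotides, and 52 of them were 1 kb or longer. The other 229 had a median length of 188 nt, and 43 were 1 kb or longer. Of the 70 contigs of at most 50 nt, 69 were outside runs. Contigs in runs also began nearer to the gene, at a median of 1388 nt against 3596 nt, which the definition of a run favours.

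Coverage on the same strand past the gene end exceeded that of the other 3 positions around genes in length. On the opposite strand past gene ends there were 210 intergenic contigs at the same limits, covering 246339 nt with a median length of 75 nt. Before gene starts there were 281 on the same strand, covering 351437 nt with a median of 162 nt, and 236 on the opposite strand, covering 264766 nt with a median of 85 nt. The 1265 contigs more than 10 kb from any gene edge had a median of 57 nt, and 9.80% of them reached 1 kb, against 32.0% of the members, 21.9% and 19.9% on the opposite strand past ends and before starts, and 22.1% on the same strand before starts. Contigs are not replicates and can be counted in more than 1 position, so these counts have no test. Of the members 100 (33.7%) lay also within 10 kb before the start of a same-strand gene.

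Each contig was binned by the distance of its edge nearest the gene and entered with its whole length, which can reach beyond the bin. Relative to the opposite strand, the summed length past gene ends was largest for contigs whose near edge lay close to the gene. With the near edge within 500 nt, the 38 same-strand contigs past ends summed to 81879 nt, of which the contig past Slc4a1ap alone was 18771 nt. Past ends on the opposite strand 14 contigs summed to 7169 nt, and before starts on the same strand 54 contigs summed to 29828 nt. Opposite-strand contigs before starts summed to more in this bin, 118109 nt with 42 contigs. With the near edge between 2 and 3 kb the sums were 89731 nt past ends on the same strand and 16658 on the opposite strand. Before starts they were 35060 on the same strand and 22292 on the opposite strand. The 89731 nt include a contig of 30145 nt past ENSMUSG00000075912. From 5 to 10 kb the values were 156096 nt, 96361 nt, 143293 nt and 46576 nt in the same order. Coverage that begins inside the gene and runs out over its end is not in these counts, because the rule leaves out contigs that touch a gene: 10456 contigs at the same limits crossed a same-strand gene end, with a median overhang of 847 nt.

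**Figure D3:**
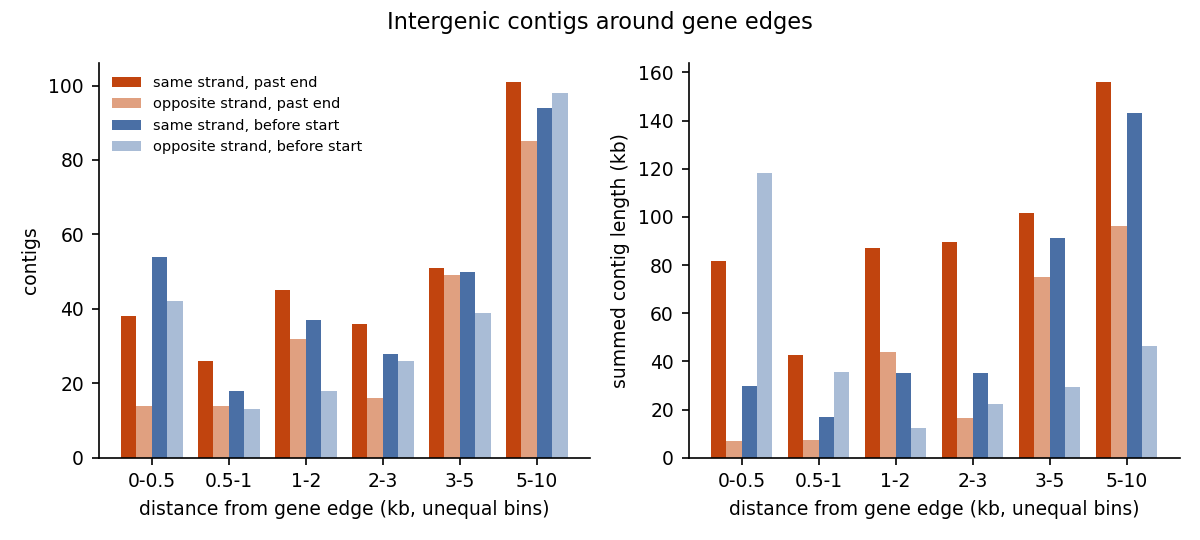
Number of intergenic contigs (left) and their summed length in kb (right) by distance from the gene edge in kb, for the 4 positions around genes. Each contig is binned by its edge nearest the gene and entered with its whole length, which can reach beyond the bin. Bins are unequal in width, and orange bars, same strand past the end, hold 81879 nt in the first bin against 7169 nt on the opposite strand.

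The level of a contig was set against the contig over the last exon of its gene, in the same file and unit, for the 214 members whose gene had one. The log2 ratio of member to last exon had a median of 0.78, with quartiles of -0.45 and 2.55, and 75 members were within 2-fold. This ratio is bounded by the rule: members have a level of at least 1, while 90 of the last-exon contigs were below 1. For the 90 members past a gene of 1 RPKM or more the median was -0.52 (quartiles -2.06 and 0.54), and for the 124 past a gene of less it was 1.90. Contigs in runs lay nearer to the last exon, with 33 of 68 (48.5%) within 2-fold, 21 above and 14 below, against 42 of 146 (28.8%) within 2-fold among the others.

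For Nudt21 the member stood at 3.51 and the last exon at 2.66, for Cntnap5a at 3.74 and 2.44, for Kcna2 at 2.04 and 0.986, and for Sntb2 at 2.42 and 0.807. In each of these 4 genes, picked as examples, the downstream contig was the higher of the pair. For Kcna2 and Sntb2 the rule fixed this order, because their last exons were below its minimum level of 1. The reverse held past Slc4a1ap, which had 1.01 downstream and 3.71 over its last exon, and past Ube2k, a ubiquitin-conjugating enzyme gene, which had 1.82 and 7.87. The contig past the palmitoyltransferase gene Zdhhc9, 6118 nt long, stood at 1.04 against 15.3. When the gene's RPKM was used in place of the last-exon contig, for 93 members with a gene at 1 RPKM or more, the median log2 ratio was -0.69 with quartiles of -1.91 and 0.28. The units differ: contigs that match an annotated exon have a level 3.54 times the exon's RPKM (median of 138 contigs, quartiles 3.19 and 3.97), so this ratio is on no common scale.

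**Figure D4:**
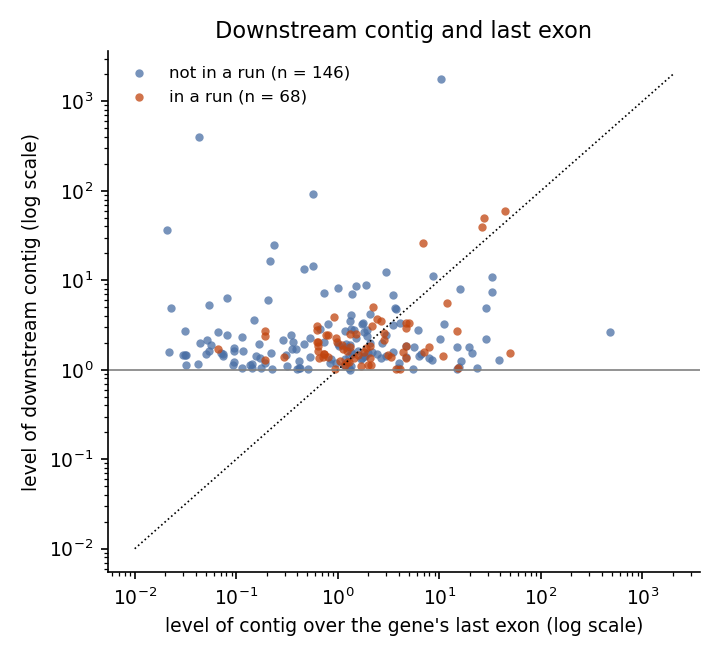
Level of each downstream contig (y, log scale) against the level of the contig over its gene's last exon (x, log scale) for 214 contigs. The dotted line marks equal levels and the horizontal line the minimum of 1 set by the rule, and 33 of the 68 contigs in runs (orange) lie within 2-fold of equality against 42 of the 146 others (blue).

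The longest contigs were continuous over more than 10 kb at a modest level. The contig past the zinc finger gene Zfp619 (chromosome 7, 46801925 to 46836401) was 34477 nt long at a level of 1.39 and began 6135 nt past the gene. That past Xkr6, a gene of the XK-related membrane protein family (chromosome 14, 64440513 to 64474671), was 34159 nt long at 2.79 and ended 4478 nt before the next gene, Pinx1. The level over the last exon of Xkr6 was 0.622, below the minimum of 1 set for members, and the downstream contig stood at 4.49 times that level. Past Cep85l, a centrosomal protein gene, 19182 nt were covered at 1.15, and past Slc4a1ap 18771 nt at 1.01. Igsf9b, which encodes an adhesion molecule of inhibitory synapses, was followed by 13657 nt at 3.94, the highest level among the 10 longest. The 4 genes Mir345, Aasdhppt, E130309D02Rik and Zfp738 were followed by 11618, 11235, 11106 and 10799 nt, at levels between 1.13 and 1.50.

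Of the members 200 (67.3%) overlapped a de novo gene model built from the same reads by Cufflinks, against 55.8% of the 1700 other intergenic contigs. The share was 61.2% on the same strand before gene starts. The members are also longer, with a median of 303 nt against 58 nt for the 1700. In 78 members (26.3%), called joined here, the span of such a model, introns included, also overlapped the upstream gene. A gene that lies within an intron of the model counts as well, so a shared transcript was not established. In 6 members (2.02%) a single de novo exon overlapped both the contig and the gene's last exon. Joined contigs had a median length of 2047.5 nt. The 122 that overlapped a model whose span did not overlap the gene had a median of 350 nt, and the 97 without a model a median of 47 nt. Of the 95 contigs of 1 kb or longer 45 were joined, the contigs past Xkr6, Igsf9b, Kcna2, Cntnap5a and Sntb2 among them. The contigs past Zfp619, Slc4a1ap, Nudt21 and Grin2a were not joined. The de novo models come from the same reads and are not independent of the contigs.

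Spliced reads seldom led from the gene into the contig behind it. Of the members 123 (41.4%) were touched by 10 or more junction reads of any kind, and in 119 of the 123 both replicate columns held reads. The share was 33.1% among the other intergenic contigs, but 48.4% among those on the same strand before gene starts. It also depends on length: it was 21.4% for members of 50 nt or shorter and 67.3% for those longer than 3 kb. Only 7 (2.36%) had 10 or more reads joining them to the upstream gene. The theta globin gene Hbq1b was joined to a contig 5703 nt past its end by 219 reads, 78 and 141 in the replicate columns. Cr1l, a complement regulator gene, was joined by 144 (63 and 81) and Ksr2, a scaffold of Ras signalling, by 123 (52 and 71). The 64 reads between Tgfbr3, a TGF-beta co-receptor gene, and a contig of 15 nt were all in replicate column 2, so this link had no replicate. Past ENSMUSG00000086101 there were 44 and 57 reads in the columns, and the links of AW011738 and Igsf9b had 28 and 22 reads in all.

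Junctions to the next gene downstream with 10 or more reads were found for 13 members (4.38%), and some carried many more reads. The contig past Figla, an oocyte transcription factor gene at 0.0300 and 0.0400 TPM in replicates 1 and 2, was joined by 3916 reads (1785 and 2131) to Add2, which encodes the cytoskeletal protein beta-adducin and starts 42125 nt further on. The contig past Rnase13, a gene at 0 TPM in both libraries, was joined by 671 reads (235 and 436) to Ndrg2, 434 nt further on. That past Dpy30, a subunit gene of histone methyltransferases, was joined by 557 reads (212 and 345) to Memo1, that past Tmem183a by 541 (193 and 348) to the liprin gene Ppfia4, and that past Gmfg by 342 (168 and 174) to Lrfn1, a synaptic adhesion gene. For these contigs the gene upstream is a neighbour by position, and the junction reads lead to the gene downstream. A further 104 contigs had 10 or more junction reads of any kind, but fewer than 10 to the upstream gene and fewer than 10 to the next. Another 116 had fewer than 10 of any kind and 58 none.

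An interval of chromosome 7 held 28 members (9.43%), all on the minus strand. It lies between Ube3a and Snord64, mm9 66562097 to 67123760, and the annotation places 165 short genes there with a median length of 79 nt, of which 156 had an RPKM of 0 in both replicate columns. The imprinted domain around Ube3a is known in mouse for tandem arrays of small nucleolar RNA genes, which are processed from the introns of long host transcripts. The short genes upstream of all but 1 of these contigs have no symbol in the tables used here, so only their positions are described. They fall in a first array of 134 genes about 79 nt long at a median spacing of 1871 nt, and a second of 26 genes of 94 nt at a median spacing of 2530 nt.

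The contigs of the first array recurred at the same place in the repeat. Of its 20 contigs 16 ended 58 to 66 nt before the start of the next short gene, and 11 of these exactly 63 nt before it. These 16 were 122 to 394 nt long at levels of 1.05 to 8.14, and 12 of them were touched by 10 or more junction reads. The second array had 7 contigs at levels of 1.04 to 12.5, all with 10 or more junction reads. The longest of these, 30145 nt past ENSMUSG00000075912 (66895772 to 66925916), lay between the arrays and stood at a level of 1.51 with 3492 junction reads, 1405 and 2087 in the replicate columns. The contig past Snord64, a small nucleolar RNA gene, was 4355 nt long at 2.22 with 1134 junction reads. Over the interval 23 of 28 contigs had 10 or more junction reads. Summed contig by contig the reads came to 10231, with 3825 and 6406 in the columns, and a junction that links contigs of the interval counts for each. Copies of a repeat share sequence, and how reads that map to several places were treated is not given in the sources used here, so the split of reads between copies is uncertain.

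The highest levels belonged to short contigs. A contig of 190 nt, 7294 nt past the splicing regulator gene Tra2a (chromosome 6, 49186437 to 49186626), had a level of 1780, while the last exon of Tra2a had 10.5. The contig past the long noncoding gene Gm15569 had 398 over 576 nt, that past Elane, the neutrophil elastase gene, 118 over 350 nt, and that past Gm24628 111 over 46 nt. Elane itself was at 0.0500 and 0.0300 TPM in replicates 1 and 2. Such levels were not always found in the de novo values of the same place. The de novo exon on the Tra2a contig had 2.51 and 1.38 RPKM in the replicate columns, so the level was 914 times their mean, and for Gm15569 it was 1952 times. Over 163 members with both values the median was 8.03 (quartiles 3.62 and 19.4), and 12 members were at 100 or more, with the zinc finger gene Zfp942 highest at 2669. The contig past Elane differed from these, with 42.0 and 80.7 RPKM in its de novo exon.

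Replicate columns were close over long contigs and less so over short ones. Among 163 members with a de novo exon above 0 in both, 25 (15.3%) were 2-fold or more apart, 16 higher in column 1 and 9 in column 2. These were 2 of the 76 members of 1 kb or longer, past Cep85l and Galnt17, and 23 of the 87 shorter ones. The irreproducibility score was 0 for 265 members, and 30 of the 32 with a higher score were 50 nt or shorter. The 70 contigs of 50 nt or less rested on a median of 3203.5 aligned bases against 399507 for those of 1 kb or longer, and 25 of the 70 had no junction read.

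**Figure D5:**
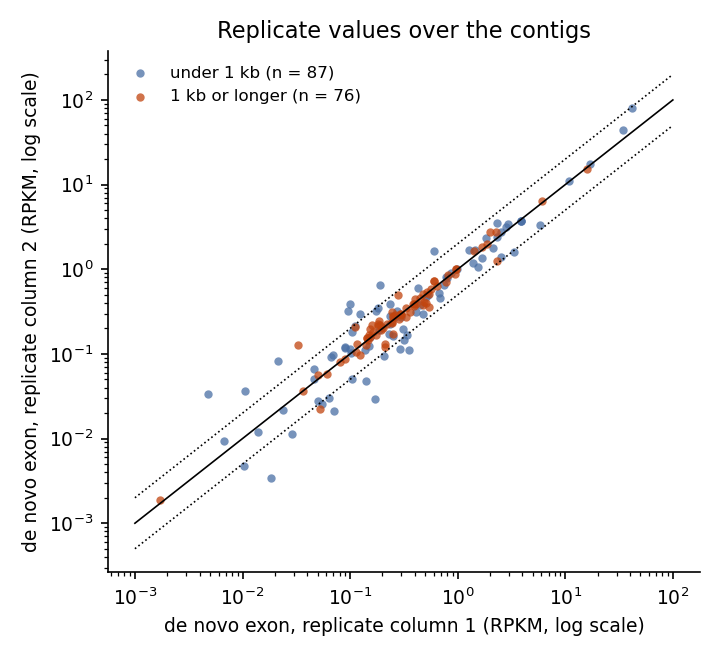
De novo exon RPKM of replicate column 2 (y, log scale) against column 1 (x, log scale) for the 163 contigs with both above 0. The solid line marks equal values and dotted lines a 2-fold difference, outside which lie 2 of 76 contigs of 1 kb or longer (orange) and 23 of 87 shorter ones (blue).

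The genes upstream were of all kinds and ranged widely in level. Of the 297 contigs 145 (48.8%) lay past 139 protein-coding genes and held 62.9% of the covered nucleotides. This class makes up 54.1% of all mm9 genes. Another 48 contigs (16.2%) lay past pseudogenes (13.4% of all genes) and 21 (7.07%) past small RNA genes (11.0%). Long noncoding genes had 15 (5.05%, against 8.42% of all genes). The other 68 (22.9%) lay past genes that are not in the later annotation (12.6% of all genes). Kinds were read from that annotation, so the unnamed short genes of the chromosome 7 interval fall in this class and not among small RNA genes. Of 216 upstream genes with a TPM, 114 reached 1 in both libraries, and the median was 1.73 TPM in replicate 1 and 1.58 in replicate 2. The same values over all genes were not computed. A filter on low counts was passed by 136 of the 216, against 18677 of 43346 genes in all. Among the coding genes the AMPA receptor auxiliary gene Cnih2 was highest, at 385 and 342 TPM, with a contig of 92 nt at 1.07 and an RPKM ratio of -4.94 on the log2 scale. Of 296 genes on 10 lists covering 3' end formation, RNA binding, synapses, channels, cytoskeleton and other functions, 3 (1.01%) had a member, against 0.748% of all genes and 0.689% of coding genes. They were Nudt21, Ube2k and the casein kinase gene Csnk1g1, whose contig was 42 nt long. The 7 lists of RNA binding, synapse, channel, transcription, cytoskeleton, guidance and ribosomal genes had none. Each list holds 24 to 37 chosen genes, so this count says nothing of the whole class: Kcna2, Grin2a, Pou2f2, Tra2a and Actn2 have a member and are on none of the lists.

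A small part of the upstream genes differed 2-fold between the libraries, at a larger share than among all genes that passed the filter. Of 136 that passed the filter on low counts 9 (6.62%) were 2-fold or more apart, against a background of 3.58% of 18677 genes, and 8 of the 9 were higher in replicate 2 (background 2.64%) and 1 in replicate 1 (background 0.937%). With 1 library on each side there is no test. The 8 were Ucma, a cartilage matrix gene, at 0.300 and 1.51 TPM in replicates 1 and 2, Actn2, which encodes the sarcomere protein alpha-actinin, at 7.11 and 14.5, Sostdc1, a secreted BMP antagonist, at 3.99 and 8.26, the plasma protein gene Hpx, Pjvk, and the pseudogenes Gm5578, Scp2-ps2 and Gm8806. The pseudogene Gm7645 was lower in replicate 2, at 3.14 and 1.36. Markers of skeletal muscle (4 of 4) and of cartilage and bone (3 of 3) were also higher in replicate 2, with summed levels given above and none at 0 in either library, and their part in these differences was not tested. In tissue RNA a larger number of cells of a type and more RNA per cell cannot be told apart.

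The limits of the rule cut through a continuous range. The members with the lowest levels lay past 5830417I10Rik (1.00), Mr1 (1.01) and Tmem18 (1.01), and the nearest outside had 0.995 past Grb2, 0.995 past 3010003L21Rik and 0.994 past ENSMUSG00000087471. In distance the last inside began 9979 nt past Pitx3, 9909 nt past Gm14367 and 9818 nt past Anp32b, and the first outside at 10007, 10021 and 10087 nt. The score left out 1 contig, past Flt4 at 0.13, and the highest scores inside were 0.09 past Gm25609 and Krt33a and 0.06 past Olfr790.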

How the data were processed

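Contigs, genes, exons and junctions came from whole-series tables on mm9, per the file headers. The authors deposited the contigs with a signal level and an irreproducibility score per contig, and RPKM values in 2 replicate columns for Ensembl release 65 and for Cufflinks models. Junction read counts were deposited for both replicates. Expected counts and TPM were deposited per library on GENCODE M4, and 3.62% and 4.01% of the expected counts fell off genes and stayed out. The labels and headers name no aligner for the mm9 tables.

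Each contig was given to the same-strand gene whose 3' end was nearest before it. Symbols matched 32620 of 37310 mm9 genes and 215 of 279 upstream genes. Genes were typed by GENCODE M21. Later last exons were matched by gene and last intron length. The mm9 genome was not used here. Rounded expected counts were scaled with TMM (edgeR 4.0.16, R 4.3.3) with a prior count of 1 after a filter on low counts; DESeq2 1.42.0 size factors were an alternative. Ratios to RPKM used a pseudocount of 0.1. Both the rule and the library fold were checked on simulated data.

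Named contigs are the 10 highest, 10 longest, those of extreme ratio, those nearest each limit, list members and those with most junction reads to the upstream gene, with later additions marked or given as examples. Members, lists and names were chosen with earlier results of these data known.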

Additional observations from a re-analysis of the deposited data

How the results depend on the processing

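The number of contigs and genes follows the limits. It was 196 and 185 at 5 kb, 459 and 422 at 20 kb, 142 and 132 at a level of 2, 617 and 552 at a level of 0.5, and 193 and 181 with multi-exon or expressed genes only. With limits chosen after seeing the data it was 145 and 139 past coding genes and 197 and 180 for contigs of at least the length of a read. The median distance was 1602 nt at 5 kb and 6696 nt at 20 kb. The median log2 ratio to the gene changed sign, to 2.93 without a minimum on the gene's RPKM, where genes at 0 enter, and to 0.78 against last-exon contigs of any level, an alternative chosen after seeing the data. The share joined to the gene by junctions was 5.39% with 1 read in each replicate. Upstream genes that differed 2-fold numbered 23 without a count filter. Leaving out each replicate moved the median TPM between 1.58 and 1.73. The other 24 values stayed within 1.5 times the main count or near the main value, the farthest being 405 contigs and 381 genes when overlap was barred on the same strand only, and 6 genes 2-fold apart with a prior count of 5. No paired analysis was possible because there is 1 group. Levels pool both replicates, so depth limits show only as the level minimum, and short contigs hold few aligned bases because they are short.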

Other observations

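Genes annotated later lay between the neighbours of some contigs. For 199 members both the upstream gene and the next same-strand gene are in GENCODE M21, and in 61 of them (30.7%) M21 places at least 1 further same-strand gene between them that the mm9 list does not have. These include Gm37494 past Zfp619, Gm47637 past Cep85l, Gm48858 past Igsf9b, and 3 genes each past Polr3a, the gene of the largest subunit of RNA polymerase III, and Slc38a6. Only the order of genes was compared, so an overlap of contig and later gene was not established. Genes were matched by identifier, so a gene under another identifier also counts: past Zkscan7 a further gene bears the same name. The share over all neighbouring gene pairs was not computed, so 30.7% has no background beside it.

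Zinc finger genes were frequent among the coding genes upstream. Symbols that begin as zinc finger names made up 10 of 139 coding upstream genes (7.19%), against 445 of 20175 coding genes (2.21%). Their contigs ranged from 46 nt past Zbtb16 to 34477 nt past Zfp619, with 10096 nt past Zkscan7, 10799 nt past Zfp738 and 9405 nt past Zbtb25. This was noticed in the data, and no test was made.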
